A study of Mus musculus with 4 samples.

Results

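The 10 genes described here carry out the uptake, storage, export and sensing of iron in mammalian cells: Tfrc, Steap3 and Slc11a2 (uptake), Fth1, Ftl1 and Ncoa4 (storage), Slc40a1 (export), and Aco1, Ireb2 and Hfe (sensing and regulation). They were chosen by name, as 10 of the 52636 gene lines of a count table, and all 10 have a line. Of these, 9 had enough counts to be tested and 1, Slc40a1, had no counts. RNA came from mouse Hoxb8 cells, a line named for a homeobox gene that is widely used to immortalise myeloid progenitors. One group carried the empty vector alone (called EV, with n = 2 libraries). The other carried DNMT3A R882H (called R882H, also n = 2), a mutant of a de novo DNA methyltransferase that is frequent in acute myeloid leukaemia. The labels give no clone number, promoter, agent or culture, and a p-value here covers the spread among the libraries alone, which may be technical.

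Cells take up iron bound to transferrin through the transferrin receptor, reduce it in the endosome and move it to the cytosol through a divalent metal transporter. Surplus iron is kept in ferritin, a shell of heavy and light chains, and is set free again when ferritin is carried to the lysosome. Iron regulatory proteins bind hairpins called iron-responsive elements when iron is scarce: binding in a 5′ untranslated region blocks translation, and binding in a 3′ untranslated region protects the mRNA from decay. RNA counts can register the second of these effects and not the first. In blood-forming cells, iron is needed above all for heme and iron-sulphur proteins, and the title of the series names heme synthesis and cuproptosis, a form of cell death driven by copper.

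The iron-responsive elements are printed because they are what Fth1, Ftl1, Slc40a1 and Tfrc share. Each was found in GENCODE M21 transcripts (mm10) as a C, 5 bases, the loop CAGTGN and 5 bases that pair with the first 5, and is written 5′ to 3′ on the strand of the mRNA with the loop in capitals. The ferritin heavy and light chain genes and the exporter each had 1 such element, in the 5′ untranslated region, and Tfrc had 4, all in the 3′ untranslated region.
Fth1, chr19:9982732-9982761, plus strand: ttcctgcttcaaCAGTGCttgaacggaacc
Ftl1, chr7:45459778-45459807, minus strand: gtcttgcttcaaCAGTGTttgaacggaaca
Slc40a1, chr1:45925464-45925493, minus strand: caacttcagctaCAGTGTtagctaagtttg
Tfrc, chr16:32631219-32631248, plus strand: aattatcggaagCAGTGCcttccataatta
Tfrc, chr16:32631598-32631627, plus strand: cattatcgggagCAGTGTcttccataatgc
Tfrc, chr16:32631663-32631692, plus strand: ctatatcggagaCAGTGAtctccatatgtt
Tfrc, chr16:32631710-32631739, plus strand: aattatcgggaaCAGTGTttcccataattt
Among 21877 coding genes, 0.137% had a match in a 5′ and 0.585% in a 3′ untranslated region. Slc11a2, whose 3′ element is a textbook case, and the other 5 genes had no match to these letters, which says nothing about elements of another shape.

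Each library held between 5470330 and 5921985 counts from a 3′ tag protocol, in which a transcript gives a tag near its poly(A) tail. Levels in CPM (counts scaled to the same total in each library) can thus be set side by side between genes without a correction for length. Near-identical copies of a 3′ end elsewhere in the genome can still change a level. This limits the places of Ftl1 and Ncoa4 in the order of levels and the shares below. Across genes, Pearson's r of log2 CPM was 0.986 within EV and 0.988 within R882H, and 0.900 to 0.908 between the groups. The R882H libraries also held Y-linked RNA that EV nearly lacked: Ddx3y had counts of 0 and 2 in EV and of 65 and 41 in R882H, while Xist had 1438 to 1880 in all 4 libraries. Both R882H libraries carry this RNA, so whatever it marks and the DNMT3A mutant cannot be told apart in any result below. Dnmt3a had 264 and 270 counts in EV and 254 and 239 in R882H and was not called. Hoxb8, the gene the line is named for, had 25 and 44 counts in EV and 15 and 4 in R882H and fell (log2 fold change −1.92 ± 0.45, edgeR adjusted p = 0.000824). As 3′ tags need not cover a transgene, neither gene checks the labels, and the part of the Hoxb8 difference in the results below was not tested. Of 13 erythroid markers with a line, 3 were tested and none was called (Hbb-bt, Tfr2 and Hbb-bs, the 3 with the most counts). The summed level of the list was 16.6 to 23.1 CPM in EV and 13.2 to 14.7 CPM in R882H, and Epor, Ermap, Hba-a1, Rhag and Slc4a1 were among those at 0.

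The design asks which genes differ when the DNMT3A mutant is added to the vector. Ftl1 and Hfe were lower in R882H, Steap3 was higher, and 6 genes did not pass the test, among them the transferrin receptor and both iron regulatory proteins. Called, rose and fell refer throughout to an adjusted p below 0.05 in edgeR's quasi-likelihood test over all 11444 tested genes. At that threshold 3 of the 9 tested iron genes were called (33.3%), against 38.8% of all tested genes, so the share of called iron genes was near the background. The groups did not overlap for 7 of the 9 iron genes, against 69.1% of all tested genes. The median log2 fold change of R882H over EV was −0.07 over the 9 genes and 0.01 over all tested genes.

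**Figure D1:**
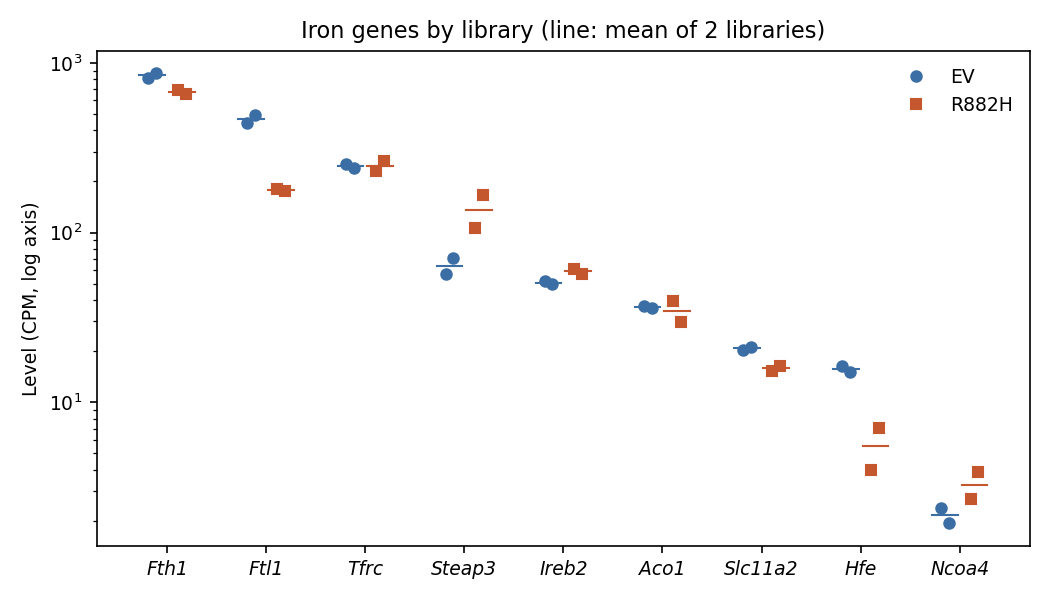
Level in CPM (log axis) of the 9 iron genes with counts in each EV library (circles) and R882H library (squares), with the mean of each pair as a line. Ftl1, Hfe, Fth1 and Slc11a2 lie lower in both R882H libraries, and Steap3, Ireb2 and Ncoa4 lie higher. The Tfrc and Aco1 libraries mix. Ftl1, Hfe and Steap3 were called.

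Uptake begins with Tfrc, the receptor that carries transferrin-bound iron into the cell (ENSMUSG00000022797, mm10 chromosome 16, 32608920 to 32632794, plus strand). Its level was 254 and 239 CPM in the EV libraries and 231 and 262 CPM in the R882H libraries, so the R882H libraries lay on either side of the EV ones. The means were 246 ± 10.3 CPM in EV and 247 ± 22.2 CPM in R882H (SD, n = 2, as for all means below). The log2 fold change was 0.002 ± 0.13 (standard error of the edgeR fit), with a 95% interval, not adjusted for multiple tests, of −0.27 to 0.27 and an edgeR adjusted p of 0.992. Its sign turned under another scaling, −0.0055 with DESeq2 size factors in edgeR and −0.016 with library size only. Tfrc is the member with 4 of the elements printed above in its 3′ untranslated region.

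Steap3 reduces ferric to ferrous iron in the endosome that Tfrc feeds (ENSMUSG00000026389, chromosome 1, 120190757 to 120272705, minus strand). It had 310 and 402 counts in EV and 632 and 945 in R882H, or 56.8 and 71.0 CPM against 106 and 166 CPM. Both R882H libraries lay above both EV libraries, and the R882H pair was the more spread (135.8 ± 42.5 CPM against 63.9 ± 9.98 CPM). The level was 2.12-fold higher in R882H, a log2 fold change of 1.09 ± 0.17 with a 95% interval of 0.74 to 1.43 (edgeR adjusted p = 1.56e-05). Leaving out EV replicate 1 gave 0.93 (edgeR adjusted p = 0.0753, with 35.7% of all tested genes called) and leaving out EV replicate 2 gave 1.25 (adjusted p = 0.0651, with 29.8% called), so the call was lost in both. It held at 1.39 without R882H replicate 1 (25.1% called) and at 0.74 without R882H replicate 2 (26.8% called). Steap1 and Steap2, relatives of the same reductase family, had no counts, and Steap4 had 7, 4, 0 and 0.

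Slc11a2, the divalent metal transporter that moves iron out of the endosome (ENSMUSG00000023030, chromosome 15, 100387898 to 100425072, minus strand), had 20.4 and 21.2 CPM in EV and 15.4 and 16.3 CPM in R882H. Both R882H libraries were the lower ones, but the gene was not called (log2 fold change −0.39 ± 0.19, 95% interval −0.77 to −0.01, edgeR adjusted p = 0.101). Its transcripts end at different sites with and without an iron-responsive element, and one count per gene does not separate them. The ends of 2 of its 6 coding transcripts match Gm5475, a gene annotated on the other strand of the same locus, with 100% identity over 197 bases, and Gm5475 had no counts.

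The ferritin chains differed in size of change. Fth1, the heavy chain with the ferroxidase site (ENSMUSG00000024661, chromosome 19, 9980598 to 9985098, plus strand), was the most abundant iron gene in every library, with 817 and 868 CPM in EV and 695 and 651 CPM in R882H. The R882H libraries were both below the EV libraries by less than 1.5-fold. The log2 fold change was −0.32 ± 0.14 with a 95% interval of −0.60 to −0.04, and the edgeR adjusted p was 0.0597, so Fth1 was not called. It was called in DESeq2 (adjusted p = 0.0335, with 21.1% of all genes with an adjusted p called), with library size only (0.0370 by edgeR), without genes whose exons overlap another gene (0.0472 by edgeR) and without EV replicate 1 (0.0197 by edgeR), and its log2 fold change lay between −0.37 and −0.26 in all 14 alternatives.

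Ftl1, the light chain, which helps the iron core to form (ENSMUSG00000050708, chromosome 7, 45457944 to 45459884, minus strand), had 2412 and 2783 counts in EV and 1083 and 1003 in R882H. In CPM these were 442 and 491 against 181 and 176, and both R882H libraries lay below both EV libraries. The level was 2.61-fold lower in R882H, from 467 ± 34.6 CPM to 178.6 ± 3.64 CPM, with a log2 fold change of −1.39 ± 0.13 and a 95% interval of −1.66 to −1.11 (edgeR adjusted p = 2.31e-10). With 1 library left out the log2 fold change was −1.46 to −1.31 and stayed called each time.

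The ratio of Fth1 to Ftl1 counts within a library, which does not depend on scaling between libraries, was 1.85 and 1.77 in EV and 3.83 and 3.69 in R882H. The 4 values fall into 2 tight pairs. The mean log2 ratio was 1.06 higher in R882H, with a pooled SD of 0.0417 (two-sided exact permutation test p = 0.333, the smallest that 2 against 2 libraries allow). Both genes carry an iron-responsive element in the 5′ untranslated region, printed above, and the log2 fold change of Ftl1 was the larger in size in every alternative that gave both. The last 400 bases of Ftl1 match Ftl1-ps1 on chromosome 13 with 99.25% identity, and Ftl1-ps1 had 132 and 155 counts in EV and 72 and 82 in R882H. Ftl1-ps1 fell too (log2 fold change −0.96 ± 0.19, edgeR adjusted p = 0.000119), and reads of the pair cannot be told apart with certainty. With the named pseudogenes added to Ftl1 the log2 fold change was −1.36 and the mean log2 ratio was 1.03 higher in R882H. Gm22133 (chromosome 7, 45458089 to 45458197) lies inside Ftl1 and had 2321, 2687, 1036 and 926 counts, nearly as many as Ftl1. The 109 bases they share mean that its counts are no independent evidence.

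**Figure D2:**
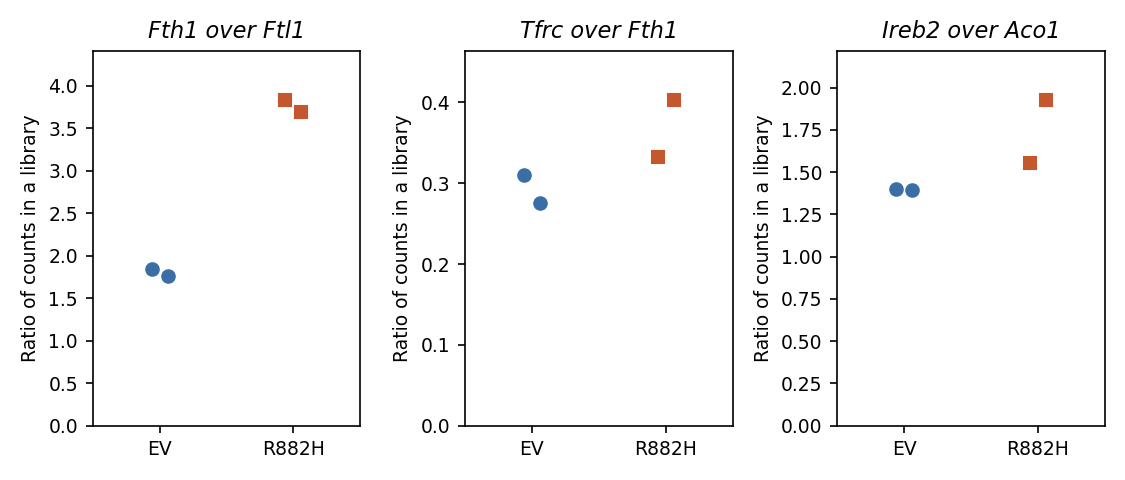
Ratio of counts of 2 iron genes within each library (circles EV, squares R882H, axes from 0) for Fth1 over Ftl1, Tfrc over Fth1 and Ireb2 over Aco1. The heavy to light chain ratio is 1.85 and 1.77 in EV and 3.83 and 3.69 in R882H.

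Ncoa4, the receptor that carries ferritin to the lysosome (ENSMUSG00000056234, chromosome 14, 32159865 to 32179855, plus strand), had only 13 and 11 counts in EV and 16 and 22 in R882H. At 2.16 ± 0.313 CPM in EV and 3.27 ± 0.838 CPM in R882H it was the lowest of the 9 genes with counts. The log2 fold change of 0.59 ± 0.44 had a 95% interval of −0.30 to 1.48 and was not called (edgeR adjusted p = 0.299). The count is uncertain as a level: the last 400 bases of Ncoa4 are found with 100% identity in the processed pseudogene Gm6768 on chromosome 12, for 5 of the 7 coding transcripts at the identity and length limits used, and Gm6768 had no counts in any library. Whether reads that map to both places were left out by the authors is not given in the sources used here and was not tested.

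Slc40a1, ferroportin, the exporter of cellular iron (ENSMUSG00000025993, chromosome 1, 45908068 to 45926523, minus strand), had no counts in any of the 4 libraries. The upper limit for a count of 0 is 3 counts, or 0.502 to 0.550 CPM here, and covers counting error only. No fold can be given. The ferroxidases that work beside ferroportin, Heph, Hephl1 and Cp, were at 0 as well, and so were Spic, Mrc1, Mertk, Marco, C1qa, C1qb and C1qc of the macrophage list. Of the 3 tested macrophage markers Cd68 rose, Adgre1 fell and Csf1r was not called, and the summed level of the list was 54.5 to 57.0 CPM in EV and 62.7 to 71.1 CPM in R882H.

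Aco1 and Ireb2 encode iron regulatory proteins 1 and 2, of which the first is also the cytosolic aconitase. Aco1 (ENSMUSG00000028405, chromosome 4, 40143081 to 40198338, plus strand) had 36.9 and 35.8 CPM in EV and 39.5 and 29.7 CPM in R882H, one R882H library on each side of the EV pair. Its log2 fold change was −0.07 ± 0.17, with a 95% interval of −0.41 to 0.27 (edgeR adjusted p = 0.775). The sign depended on 1 library: it was 0.13 without R882H replicate 2 and −0.28 without R882H replicate 1.

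Ireb2 (ENSMUSG00000032293, chromosome 9, 54863789 to 54912530, plus strand) had 51.5 and 49.95 CPM in EV and 61.4 and 57.2 CPM in R882H. The R882H libraries were both above EV, by an amount that did not pass the test (log2 fold change 0.23 ± 0.14, 95% interval −0.06 to 0.51, edgeR adjusted p = 0.202). Ireb2 counts exceeded Aco1 counts within every library, 1.40-fold and 1.39-fold in EV and 1.56-fold and 1.93-fold in R882H. The mean log2 ratio differed by 0.31 with a pooled SD of 0.155 (two-sided exact permutation test p = 0.333, the smallest possible). Iron regulatory proteins act on Fth1 by blocking translation, which RNA counts do not register. The ratio of Tfrc to Fth1 counts is therefore no measure of their activity. This ratio was 0.311 and 0.275 in EV and 0.333 and 0.403 in R882H. That log2 ratio was 0.32 higher in R882H with a pooled SD of 0.164 (exact permutation p = 0.333), and without R882H replicate 2 it was 0.19 higher.

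Hfe, a relative of class I histocompatibility proteins that binds the transferrin receptor and is mutated in hereditary haemochromatosis (ENSMUSG00000006611, chromosome 13, 23702034 to 23710854, minus strand), had 89 and 85 counts in EV and 24 and 40 in R882H. In CPM these were 16.3 and 15.0 against 4.02 and 7.02, with no overlap between the groups. The level was 2.84-fold lower in R882H, a log2 fold change of −1.51 ± 0.26 with a 95% interval of −2.04 to −0.98 (edgeR adjusted p = 1.89e-05). With 1 library left out it was −1.94 to −1.14 and remained called. Its partner B2m, which class I proteins and Hfe need at the cell surface, rose from 3311 ± 135 CPM to 4735 ± 744 CPM (log2 fold change 0.52 ± 0.15, edgeR adjusted p = 0.00761), a call that ended without R882H replicate 2 (0.36, adjusted p = 0.245).

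**Figure D3:**
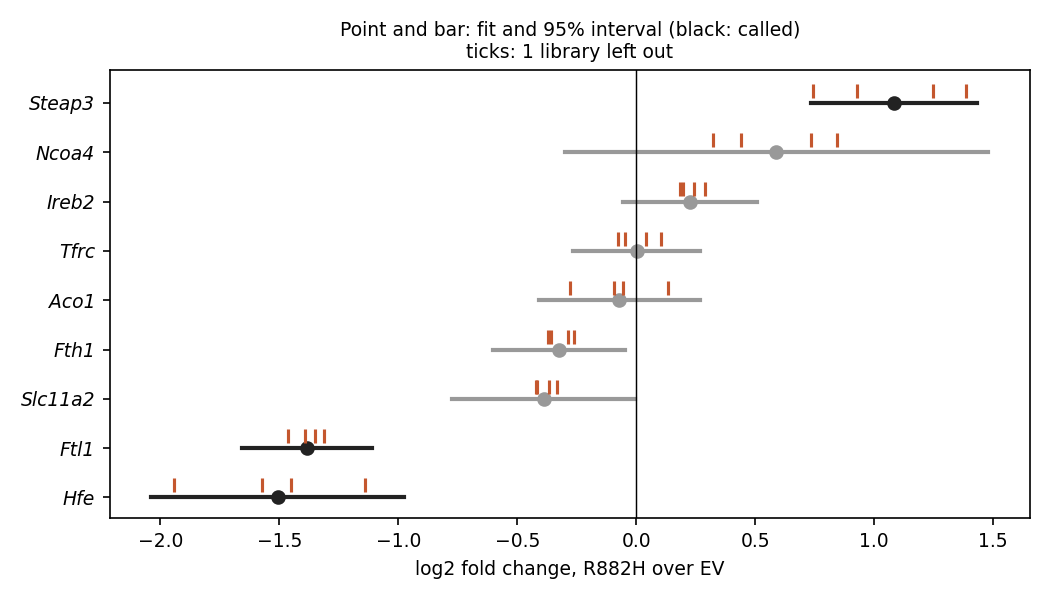
Log2 fold change of R882H over EV (x axis) of the 9 tested iron genes, with the fitted value as a point, its unadjusted 95% interval as a bar and the 4 values with 1 library left out as ticks. Point, bar and ticks of Hfe, Ftl1, Fth1 and Slc11a2 lie below 0, and those of Steap3 lie above 0. The ticks of Ireb2 and Ncoa4 lie above 0, but their bars cross 0. The ticks of Tfrc and Aco1 fall on both sides of 0. Hfe, Ftl1 and Steap3 were called.

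The order of the levels differed in 1 place between the groups. In EV it ran Fth1, Ftl1, Tfrc, Steap3, Ireb2, Aco1, Slc11a2, Hfe and Ncoa4, and in R882H Tfrc passed Ftl1. Within each group the 2 libraries of a gene never overlapped those of the next gene in the order. The closest neighbours were Steap3 and Ireb2 in EV, where mean levels differed 1.26-fold, and Ftl1 and Steap3 in R882H, at 1.32-fold. Ftl1 made up 26.1% and 27.4% of the summed level of the 10 genes in EV and 13.6% and 12.9% in R882H, and Steap3 3.35% and 3.96% in EV and 7.92% and 12.1% in R882H.

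In the promoters, 250 bases before to 50 after each start in the RefSeq table (GRCm38.p6), 8 of the 10 genes had a window. These 8 genes had 15 windows between them. The letters TGACNNNGC, which match sites of NRF2 and related bZIP factors, were searched on both strands, as were the letters CACGTG, which bind MYC and MiT/TFE factors. TGACNNNGC is found in 12.4% of all 32851 windows and CACGTG in 7.15%, shares of windows and not of genes. Hfe is shown because it fell and holds a match, which starts 67 bases before the gene's start on the strand of the gene.
Hfe, chr13:23710805-23711104, minus strand: acagcaatccTGACTCAGCagtggctccag
The capitals mark the match, and the coordinates are those of the whole window. Slc40a1 and Slc11a2 had no window and were not searched. Among the other 8 genes the only other match was in Ncoa4, which was not called, and starts 44 bases before its start. Neither motif was found in the windows of Ftl1, Fth1, Tfrc or Steap3. A match describes the letters and is not shown to be a site.

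Genes around these 10 were read from lists, each beside 38.8% called over all tested genes. Of 12 tested uptake genes 2 rose, 3 fell and 7 were not called, with a median log2 fold change of −0.12. Slc11a1, the phagosomal relative of Slc11a2, had 18 and 48 counts in EV and 156 and 129 in R882H and rose (log2 fold change 2.04 ± 0.26, edgeR adjusted p = 2.29e-07). The log2 fold change of Slc11a1 was 1.52 without EV replicate 1 and 2.87 without EV replicate 2. Lcn2, a siderophore binder, had 164 and 224 counts in EV and 3 and 1 in R882H and fell (−6.58 ± 0.37), the largest change on the list, with −7.45 without R882H replicate 1. Transferrin itself, Trf, fell from 62.4 ± 12.1 CPM to 36.6 ± 3.30 CPM (−0.77 ± 0.15, edgeR adjusted p = 0.000134), with exons that overlap Gm20425. Slc39a14, a further metal transporter, also fell from a low level (21 and 28 counts to 8 and 11). Its call ended in DESeq2 (adjusted p = 0.141), without EV replicate 2 (0.110 by edgeR) and without R882H replicate 1 (0.128 by edgeR).

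Of 13 tested genes of the transferrin cycle 2 rose and 4 fell, with a median log2 fold change of −0.07. The recycling GTPase gene Rab4a had 80 and 79 counts in EV and 8 and 6 in R882H (−3.55 ± 0.35). Ehd1, which also acts in endosome recycling, fell (−0.77 ± 0.13), as did the clathrin heavy chain gene Cltc (−0.54 ± 0.13) and the adaptor subunit gene Ap2m1 (−0.36 ± 0.13), while the proton pump accessory gene Atp6ap2 rose (0.53 ± 0.13). The calls of Cltc and Atp6ap2 ended without R882H replicate 2 (edgeR adjusted p = 0.0660 and 0.0502), and that of Ap2m1 ended in DESeq2 (0.128) and without EV replicate 1, R882H replicate 1 or R882H replicate 2 (0.0709, 0.164 and 0.220 by edgeR).

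In storage, 2 of 8 tested genes fell and none rose (median −0.27): Ftl1 and the ubiquitin ligase gene Herc2, whose product turns over NCOA4 (from 26.2 ± 0.947 CPM to 14.2 ± 1.46 CPM, log2 fold change −0.88 ± 0.19, edgeR adjusted p = 0.000278). The iron chaperone genes Pcbp1 (0.15 ± 0.14) and Pcbp2 (0.21 ± 0.14) were not called. Pcbp1 was called without EV replicate 2 (log2 fold change 0.34, edgeR adjusted p = 0.0368) and was at −0.034 without EV replicate 1. In export and systemic regulation 1 of 10 tested genes rose and 3 fell (median −0.01). Besides B2m and Hfe these were the BMP receptor genes Bmpr1a, with 230 and 238 counts in EV and 2 and 3 in R882H (−6.55 ± 0.32), and Bmpr2 (−0.85 ± 0.19). BMP signalling drives hepcidin in liver, and the hepcidin gene Hamp had 1, 0, 2 and 0 counts here.

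Of 7 tested transcripts on a list of textbook iron-responsive elements, 2 fell, Ftl1 among them, and none rose (28.6% called, median −0.32). Among 11 tested sensing genes 2 rose and 1 fell (median 0.21). The oxygen-sensing factor gene Hif1a fell from 63.5 ± 0.0652 CPM to 36.9 ± 4.20 CPM (−0.78 ± 0.15, edgeR adjusted p = 5.35e-05). Egln1, the iron-dependent hydroxylase that marks HIF for decay, rose (0.38 ± 0.13, edgeR adjusted p = 0.0223), as did Cul1, a scaffold of the ligase that degrades iron regulatory protein 2 (0.36 ± 0.13, adjusted p = 0.0303). Fbxl5, the iron-binding subunit of that ligase, was not called (0.21 ± 0.20). The calls of Egln1 and Cul1 ended in DESeq2 (adjusted p = 0.108 and 0.145) and without R882H replicate 1 (0.146 and 0.105 by edgeR) or R882H replicate 2 (0.0980 and 0.173), that of Egln1 also without EV replicate 1 (0.0587) and that of Cul1 without EV replicate 2 (0.193).

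Iron-sulphur assembly was read from separate mitochondrial and cytosolic lists. Of 22 tested genes of mitochondrial iron and cluster assembly 3 rose and 2 fell (22.7%, median −0.02), and of 9 cytosolic assembly genes 2 fell (22.2%, median 0.003). The co-chaperone gene Hscb rose from 14.4 ± 1.66 CPM to 31.1 ± 1.42 CPM (1.11 ± 0.18, edgeR adjusted p = 7.87e-06). The ferredoxin gene Fdx1 (0.78 ± 0.22) and the importer gene Slc25a37 (0.39 ± 0.13) rose, and Mfn2, a mitochondrial fusion gene, fell (−0.61 ± 0.17). Nubp2 (−0.70 ± 0.14) and Ciapin1 (−0.40 ± 0.13) were the cytosolic genes that fell. Exons of Ciapin1 overlap Coq9. In DESeq2 the calls of Fdx1 (adjusted p = 0.0979), Slc25a37 (0.0821), Mfn2 (0.0545) and Ciapin1 (0.0503) ended. Without R882H replicate 1 the edgeR calls of Fdx1 (0.0725), Slc25a37 (0.0633), Mfn2 (0.0543) and Ciapin1 (0.242) ended. Without R882H replicate 2 those of Slc25a37 (0.164) and Ciapin1 (0.0745) ended, without EV replicate 1 those of Fdx1 (0.0728) and Slc25a37 (0.0951), and without EV replicate 2 that of Ciapin1 (0.0657).

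**Figure D4:**
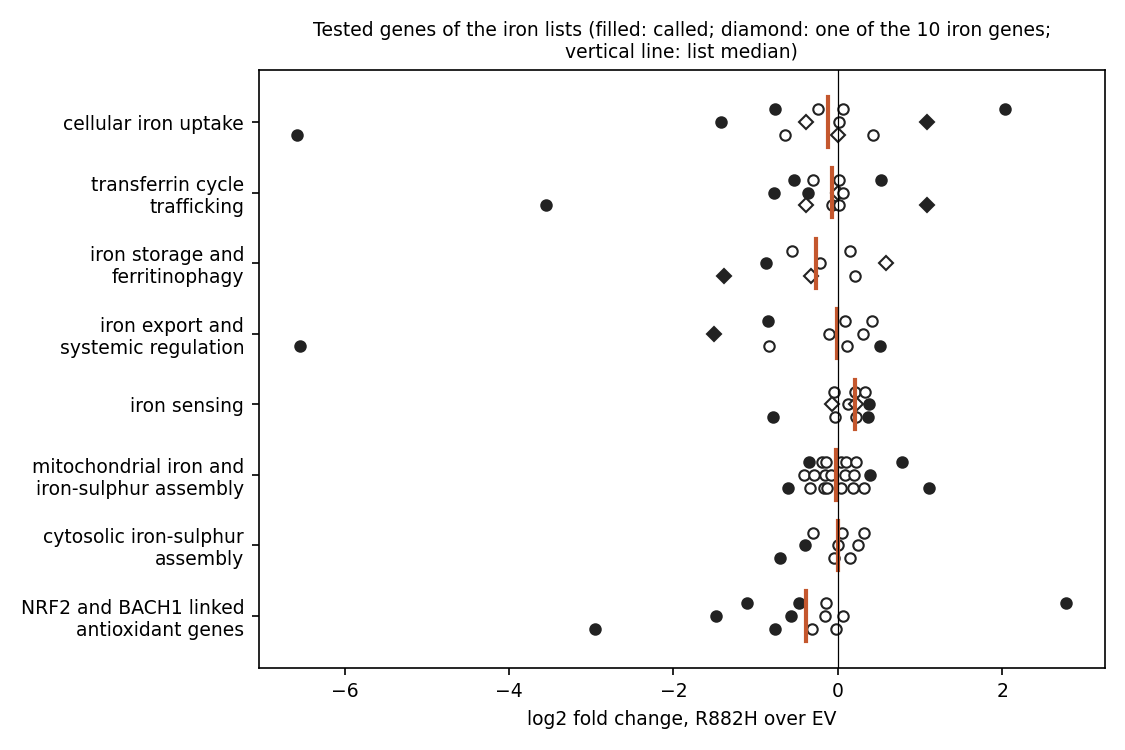
Log2 fold change of R882H over EV (x axis) of the tested genes of 8 lists around iron handling (rows), filled where called, as a diamond for the 10 iron genes and with the list median as a vertical line. The antioxidant list has the lowest median, −0.39, and the sensing list the highest, 0.21.

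Genes of the antioxidant response, which NRF2 activates and BACH1 represses, include both ferritin genes by textbook knowledge. The list read here holds other genes linked to this response, among them the regulators Nfe2l2, Bach1 and Keap1, and of its 12 tested genes 1 rose and 6 fell (58.3% called, median −0.39). Srxn1, sulfiredoxin, fell from 39.4 ± 3.39 CPM to 14.2 ± 1.81 CPM (−1.48 ± 0.18, edgeR adjusted p = 3.07e-08). G6pdx (−0.77 ± 0.14), the cystine transporter gene Slc7a11 (−1.11 ± 0.29), Gclm (−0.58 ± 0.15), Keap1 (−0.47 ± 0.15) and Hmox1 (29 and 39 counts in EV, 6 and 3 in R882H) also fell, and Nqo1 rose from 4 and 3 counts to 27 and 25. Nfe2l2, the NRF2 gene (−0.14 ± 0.14), and Bach1 (−0.16 ± 0.18) were not called. Any part of this response in the change of Ftl1 was not tested. The call of Slc7a11 ended in DESeq2 (adjusted p = 0.0608), that of Gclm without R882H replicate 1 (0.0504 by edgeR), and that of Keap1 in DESeq2 (0.0757), without R882H replicate 1 (0.169 by edgeR) and without EV replicate 2 (0.246 by edgeR, log2 fold change −0.23). Exons of G6pdx, Gclm and Keap1 overlap other genes.

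Markers of other cell types moved with the groups, and their part in the changes of Ftl1, Hfe and Steap3 was not tested. Their counts of called genes, too, stand beside 38.8% called over all tested genes. In bulk RNA, fewer cells of a type and less RNA per cell cannot be told apart. All 9 tested B-lineage markers rose, with a summed level of 740 to 753 CPM in EV and 2095 to 2116 CPM in R882H, with most counts in Igll1, Ebf1 and Vpreb1, and no marker of that list was at 0. Of 6 tested basophil and mast cell markers 5 rose and 1, Gata2, fell (log2 fold change −0.86 ± 0.17). Most counts were in Cpa3, Kit and Gata2, and Cma1, Fcer1a, Mcpt4 and Tpsb2 were at 0. The summed level was 120 to 135 CPM in EV and 501 to 503 CPM in R882H. Cpa3 made up most of that rise, at 21.3 and 23.7 CPM in EV and 288 and 312 CPM in R882H. Of 6 tested neutrophil markers 3 rose, Ctsg, Mpo and Mmp8. Most counts were in Ctsg, Mpo and Prtn3, and Prtn3 was not called (log2 fold change −0.04 ± 0.13). Camp, Ltf, Ly6g, Ngp and S100a9 were at 0. The summed level was 1391 to 1539 CPM in EV and 3100 to 3187 CPM in R882H. Mpo made up most of that rise, at 30.4 and 34.9 CPM in EV and 1213 and 1270 CPM in R882H. Of 5 tested megakaryocyte markers 1 rose and 3 fell (929 to 1105 CPM against 60.0 to 66.6 CPM, with most counts in Pf4, Itgb3 and Ppbp; Gp6 and Treml1 at 0). Most of that summed level in EV was Pf4 alone, at 1033 and 844 CPM in EV and 15.1 and 10.5 CPM in R882H. Of 15 proliferation genes 2 rose and 1 fell, with a summed level of 3624 to 3650 CPM in EV and 3731 to 3996 CPM in R882H.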

How the data were processed

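The authors deposited raw counts per Ensembl gene from QuantSeq 3′ libraries, with 1 column per library. The submitters' processing notes name bcl2fastq 2.17.1.14, cutadapt 1.14, HISAT2 2.0.4, featureCounts of Subread 2.0.0, edgeR 3.34.0, limma 3.48.3 and mm10. The sources used here do not give the annotation, the strand setting or the treatment of multi-mapping reads. Symbols and positions came from GENCODE M21 (52403 of 52636 lines matched). The test was edgeR 4.0.16 under R 4.3.3, with filterByExpr by group, TMM scaling, a robust quasi-likelihood fit and Benjamini-Hochberg adjustment over all tested genes. CPM uses TMM-scaled library sizes. Each standard error is the absolute log2 fold change divided by √F. DESeq2 1.42.0 was an alternative. Near-identical 3′ ends were sought with blastn 2.17.0 over the last 400 bases (at least 80 bases and 95% identity), and exon overlaps with bedtools 2.31.1 among genes with at least 10 counts. The edgeR steps were tested on simulated data with 50 changed genes at each fold. Of these, 24% were called at 1.5-fold, 86% at 2-fold and 100% at 4-fold and at 8-fold. False calls were 8 of 163. The simulation gave all 11444 genes the same spread between libraries and made far fewer calls than the 4435 in the data. An adjusted p of 0.05 thus stood for a stricter unadjusted p in the simulation. Its shares therefore do not give the power of the real comparison. A gene that was not called here may still differ by a small fold. Named genes are the 10 iron genes, up to 6 called genes of at least 5 CPM per list by smallest p, the 3 markers of most counts per cell type, the sex-linked RNAs, genes whose exons overlap an iron gene, and ferritin pseudogenes. The others named were chosen after their values were seen, and some genes of the lists are counted but not reported here by name. Members and lists were chosen with earlier results of these data known.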

Additional observations from a re-analysis of the deposited data

How the results depend on the processing

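Ftl1 and Hfe kept direction and call in every alternative that could test them, with log2 fold changes of −1.46 to −1.31 and −1.94 to −1.14. Ftl1 has no value without genes whose exons overlap another gene, since its own do. Iron genes called higher ranged from 0 to 1 and lower from 2 to 3 with 1 library left out. All genes called higher and lower numbered 2213 and 2222 with all libraries, 1300 and 1416 in DESeq2, and, with 1 library left out, 1508 to 2065 and 1446 to 2168 (fewest without R882H replicate 1). The log2 fold change of Tfrc, 0.002, turned negative with DESeq2 size factors in edgeR (−0.0055), library size only (−0.016), a filter of 10 counts in each library of either group (−0.00051), DESeq2 (−0.0076) and overlapping genes left out (−0.0064). With 1 library left out it ranged from −0.078 to 0.10. On the same terms Aco1 ranged from −0.28 to 0.13, Pcbp1 from −0.034 to 0.34, Fbxl5 from −0.035 to 0.48 and Bach1 from −0.33 to 0.031. The cause of these changes was not tested. Replicate numbers do not pair the libraries (correlation of deviations −0.003): with the replicate block 2196 genes were higher and 2229 lower, and 1 iron gene was higher and 2 lower. Adding near-identical copies, an alternative chosen after seeing the data, left Ftl1 at −1.36. A lone library of a group is assumed to vary like the other group. At this depth Slc40a1 has only an upper level.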
